A study of Mus musculus with 7 samples.

Results

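The genes described here are *Hmgcs1*, *Sqle*, *Idi1*, *Cyp51*, *Srebf2*, *Insig1* and *Abca1*, which stand for the synthesis of cholesterol, its control and its export from the cell. They were chosen by symbol, with earlier results of these data known, as 7 of the 52550 genes in the count table. All 7 passed the filter on low counts. Total RNA, depleted of ribosomal RNA, was sequenced from the retina of 4 WT and 3 SCA7 140Q/140Q homozygous knock-in mice on the C57BL/6J background, all 12.5 weeks old. Each library came from both retinas of a single mouse. The knock-in lengthens the CAG repeat in the first exon of *Atxn7* and leaves the gene under its own promoter, so that every cell that uses *Atxn7* carries the expanded protein and no cell type was targeted. *Atxn7* itself was read at 33.7 to 43.7 CPM (library-size normalised counts, scaled by TMM) in WT and at 34.2 to 39.9 CPM in SCA7 (log2 FC -0.06, SE 0.09, adjusted p = 0.64), a level that does not check the labels, since the allele changes the repeat and not the promoter. The libraries held between 56497675 and 96635832 counts, and the largest CV among the 7 genes within a genotype was 9.63%.

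Cholesterol is built from acetyl-CoA through mevalonate, isoprenoids, squalene and lanosterol. When sterols in the endoplasmic reticulum run low, SCAP carries the precursor of the transcription factor SREBP2 to the Golgi for cleavage, and the released factor switches on the genes of synthesis and uptake, while INSIG proteins hold the SCAP complex back when sterols are plentiful. Oxysterols in turn activate the LXR receptors, which switch on export through ABCA1. In the retina, cholesterol is a component of neuronal and photoreceptor membranes, and it is both made locally and taken up from the blood through the retinal pigment epithelium.

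Promoter sequences are shown because SREBP2 and the LXR receptors act through short DNA elements near the start of such genes. RefSeq promoter windows (GRCm38.p6, 300 bases) were matched by symbol for 6 of the 7 genes, and none was matched for *Sqle* in the set used. Each window was searched on both strands for the letters TCACNCCAC and the shorter TCACNNCA (sterol elements), CCAAT (the CCAAT box) and a DR4 motif, a direct repeat of short receptor sites with 4 bases between them that LXR receptors are known to bind. The motifs were chosen with the promoters in view, and every match to the longer sterol element is also one to the shorter. The 4 stretches that hold a sterol element or a DR4 motif are printed 5′ to 3′ on the strand of the gene, up to the last base before the more upstream of its RefSeq and GENCODE starts, with matches in capitals. They are *Hmgcs1* at chr13:119690201-119690350 (plus strand), *Srebf2* at chr15:82147031-82147180 (plus strand), *Cyp51* at chr5:4104747-4104896 (minus strand) and *Abca1* at chr4:53159896-53160045 (minus strand).
Hmgcs1: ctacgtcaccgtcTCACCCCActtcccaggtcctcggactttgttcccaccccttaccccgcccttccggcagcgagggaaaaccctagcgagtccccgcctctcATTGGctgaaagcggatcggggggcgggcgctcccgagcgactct
Srebf2: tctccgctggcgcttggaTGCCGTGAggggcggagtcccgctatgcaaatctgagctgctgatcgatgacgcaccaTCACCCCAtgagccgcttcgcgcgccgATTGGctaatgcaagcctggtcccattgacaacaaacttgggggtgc
Cyp51: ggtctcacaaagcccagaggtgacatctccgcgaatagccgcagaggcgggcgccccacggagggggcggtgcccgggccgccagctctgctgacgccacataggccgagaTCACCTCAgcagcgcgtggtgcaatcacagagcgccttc
Abca1: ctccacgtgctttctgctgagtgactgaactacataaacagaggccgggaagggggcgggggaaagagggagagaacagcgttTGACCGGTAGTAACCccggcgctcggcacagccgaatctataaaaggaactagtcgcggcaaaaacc

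In *Hmgcs1* the capitals mark the sterol element letters TCACCCCA, which begin at -137 from the RefSeq start and also match the longer form, and, nearer the start, the CCAAT box read from the other strand. *Srebf2* held TCACCCCA at -162 from its start, a reverse match TGCCGTGA and a reverse CCAAT box, and *Cyp51* held TCACCTCA at -88 from its start. In *Abca1* the capitals mark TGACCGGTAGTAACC, the DR4 motif read from the other strand, at -67 from the start. Of 32851 RefSeq windows of the same length, 1.24% held the longer sterol element, 13.8% the shorter, 37.4% a CCAAT box and 0.207% the DR4 motif. The windows of *Idi1* and *Insig1* held the letters of a CCAAT box and no match to a sterol element or the DR4 motif. These matches describe letters in a window, and binding was not measured here.

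Across the 7 genes, the genotypes separated into a fall in *Idi1*, *Cyp51* and *Insig1* of 1.45-, 1.41- and 1.34-fold and a rise in *Abca1* of 3.29-fold (95% interval 2.92 to 3.69), while *Hmgcs1*, *Sqle* and *Srebf2* did not pass the test. By the quasi-likelihood test of edgeR with Benjamini-Hochberg adjustment over the 20128 genes tested, 3 of the 7 genes were lower at an adjusted p under 0.05, against 14.2% of all genes tested, and 1 was higher, also against 14.2%. Their median log2 FC was -0.13, beside -0.02 over all genes tested. With the fold limits of the study added, *Idi1* was the only one of the 7 with FC under 0.7 (7.91% of all genes) and *Abca1* the only one with FC above 1.3 (7.47%). The first of these rests on single libraries, since with the fold limit 0 of the 7 genes were lower without the second WT, the first SCA7 or the second SCA7 library, and 2 (*Idi1* and *Cyp51*) were lower without the third SCA7 library. In 4 of the 7 genes every SCA7 library lay below every WT library, which held for 18.3% of all genes, and in 1 every SCA7 library lay above, which held for 19.3%. Since RNA of the whole retina was measured, fewer cells of a type and less RNA per cell cannot be told apart in any of these values.

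**Figure D1:**
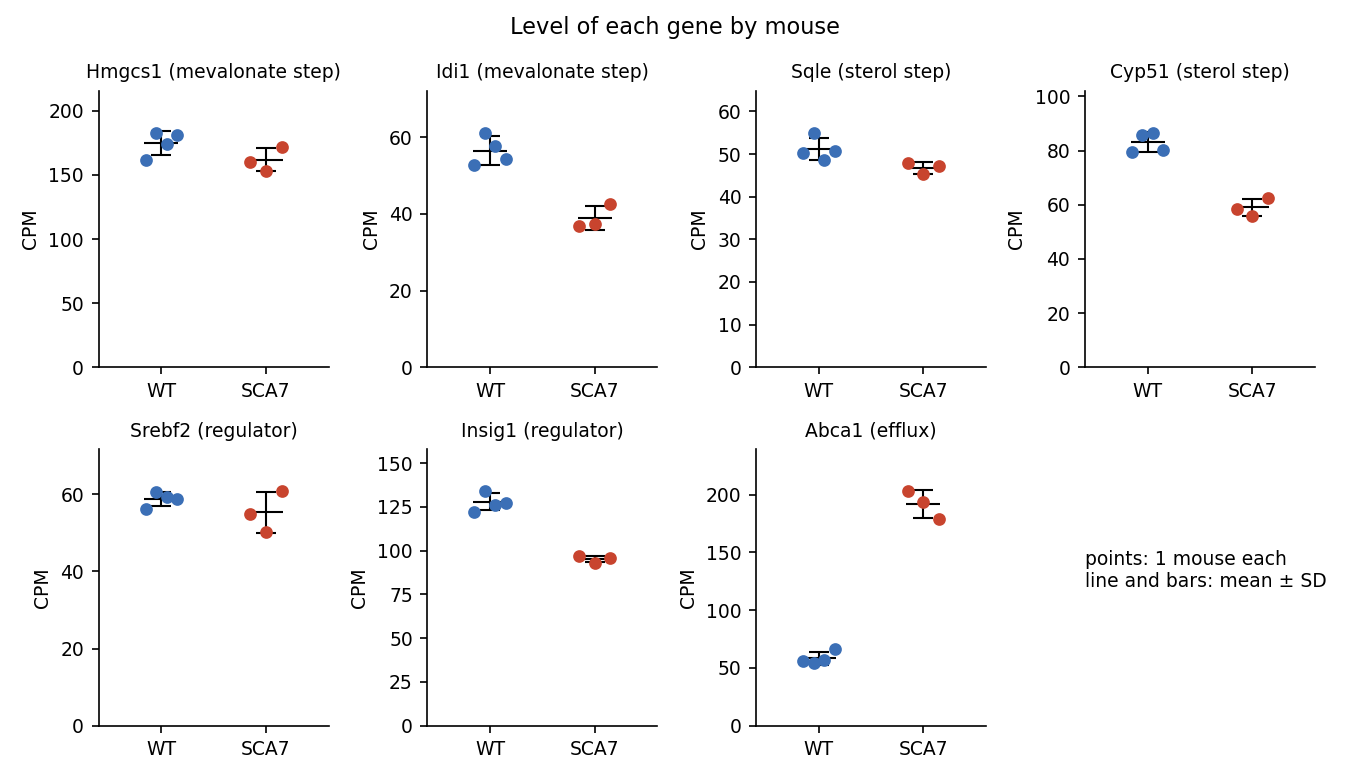
Level of each gene in every library, in CPM on a linear axis that starts at 0, for WT (blue, n = 4) and SCA7 (red, n = 3), with the line and bars as mean ± SD. The SCA7 points of Idi1, Cyp51, Insig1 and Sqle lie below all WT points, those of Abca1 lie above them, and the points of Hmgcs1 and Srebf2 overlap.

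The mevalonate part of synthesis is represented by *Hmgcs1* and *Idi1*. *Hmgcs1* (ENSMUSG00000093930, chr13:119690379-119708260) encodes the cytosolic HMG-CoA synthase, which acts early in the route to mevalonate. It was read at 162, 183, 174 and 181 CPM in the 4 WT libraries and at 160, 153 and 172 CPM in the 3 SCA7 libraries. The third SCA7 library lay above the lowest WT library, so the groups overlapped. The means were 175 ± 9.51 CPM (SD, n = 4) and 162 ± 9.28 CPM (SD, n = 3), and the log2 FC of -0.12 (SE 0.07, edgeR adjusted p = 0.22) had a 95% interval from -0.26 to 0.03.

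*Idi1* (ENSMUSG00000058258, chr13:8885501-8892451) encodes the isomerase that turns isopentenyl into dimethylallyl diphosphate, the starter of isoprenoid chains. Its level was 52.7, 61.2, 57.7 and 54.3 CPM in WT and 36.9, 37.4 and 42.5 CPM in SCA7. No SCA7 library reached the lowest WT library, and the gap between the groups was wider than the range within the SCA7 group. The mean fell from 56.5 ± 3.76 CPM to 38.9 ± 3.1 CPM, a log2 FC of -0.54 (SE 0.07, edgeR adjusted p = 2e-04). Its FC of 0.690 was just inside the fold limit of 0.7.

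The sterol part of synthesis, from squalene onwards, is represented by *Sqle* and *Cyp51*. *Sqle* (ENSMUSG00000022351, chr15:59315077-59331192) encodes squalene epoxidase, the first oxygen-dependent step of the pathway. It was read at 50.3, 55.0, 48.7 and 50.8 CPM in WT and at 48.0, 45.3 and 47.3 CPM in SCA7. The groups did not overlap, but the highest SCA7 library and the lowest WT library were less than 1 CPM apart. The log2 FC of -0.13 (SE 0.06, 95% interval from -0.26 to 0.00) did not pass the edgeR test (adjusted p = 0.13), and passed it in 1 of 15 alternatives, without the third WT library (log2 FC -0.15, adjusted p = 0.044).

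*Cyp51* (ENSMUSG00000001467, chr5:4081145-4104746) encodes lanosterol demethylase, the enzyme that azole drugs inhibit in fungi. Its level was 79.5, 85.7, 86.6 and 80.1 CPM in WT and 58.5, 56 and 62.4 CPM in SCA7. All 3 SCA7 libraries lay well below the lowest WT library. The mean fell from 83.0 ± 3.69 CPM to 59.0 ± 3.2 CPM, a log2 FC of -0.49 (SE 0.06, edgeR adjusted p = 0.00011), and its FC of 0.711 was just outside the fold limit. *Cyp51* shares 166 exonic bases with *Akap9* on the opposite strand. The libraries were strand-specific per the study's methods, but the strand setting of the counting is not given in the sources used here. *Akap9* took 6267 to 14987 counts per library and had a log2 FC of 0.10 (adjusted p = 0.39). The genes annotated on the opposite strand of *Hmgcs1* and *Idi1* took 0 to 4 and 13 to 27 counts per library. The latter, *Gm48574*, had a log2 FC of -1.08 (edgeR adjusted p = 0.015), in the same direction as *Idi1*, which took 2269 to 4378 counts per library.

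The control of the pathway is represented by *Srebf2* and *Insig1*. *Srebf2* (ENSMUSG00000022463, chr15:82147181-82205379) encodes SREBP2, whose activity is set by cleavage of the protein, which RNA does not show. It was read at 56.2, 60.5, 59.3 and 58.7 CPM in WT and at 55.0, 50.1 and 60.8 CPM in SCA7. The SCA7 group held both the lowest and the highest of the 7 libraries and was the most variable genotype group among the 7 genes (CV 9.63%, against 3.06% in WT). The log2 FC was -0.09 (SE 0.07, 95% interval from -0.24 to 0.06, edgeR adjusted p = 0.38).

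*Insig1* (ENSMUSG00000045294, chr5:28071363-28078662) encodes a protein that retains SCAP in the endoplasmic reticulum and is itself a target of SREBP. Its level was 122, 134, 126 and 127 CPM in WT and 96.8, 93.2 and 95.9 CPM in SCA7. The SCA7 libraries were nearly alike (CV 1.99%) and all lay below WT. The mean fell from 128 ± 4.85 CPM to 95.3 ± 1.89 CPM, a log2 FC of -0.42 (SE 0.06, edgeR adjusted p = 2e-04), without reaching the fold limit (FC 0.747).

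Export is represented by *Abca1* (ENSMUSG00000015243, chr4:53030787-53159895), which encodes the transporter that passes cholesterol and phospholipid to apolipoproteins. It was read at 56, 54.2, 57.0 and 66.4 CPM in WT and at 203, 194 and 179 CPM in SCA7. The fourth WT library was the highest of its group and still far below every SCA7 library. The mean rose from 58.4 ± 5.48 CPM to 192 ± 12.1 CPM, a log2 FC of 1.72 (SE 0.08, edgeR adjusted p = 5.3e-08). By the exact permutation test (two-sided, 4 WT against 3 SCA7 libraries), *Idi1*, *Cyp51*, *Insig1* and *Abca1* each gave p = 0.0286, the smallest value that this design allows, *Sqle* gave p = 0.0571, *Hmgcs1* p = 0.114 and *Srebf2* p = 0.314.

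The fold changes depended little on the settings. Over 15 alternative fits, *Idi1* lay between -0.60 and -0.50, *Cyp51* between -0.53 and -0.45, *Insig1* between -0.44 and -0.40 and *Abca1* between 1.68 and 1.78 on the log2 scale, and these 4 genes passed in all 15. *Hmgcs1* (-0.16 to -0.08) and *Srebf2* (-0.16 to -0.02) passed in 0 of 15.

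**Figure D2:**
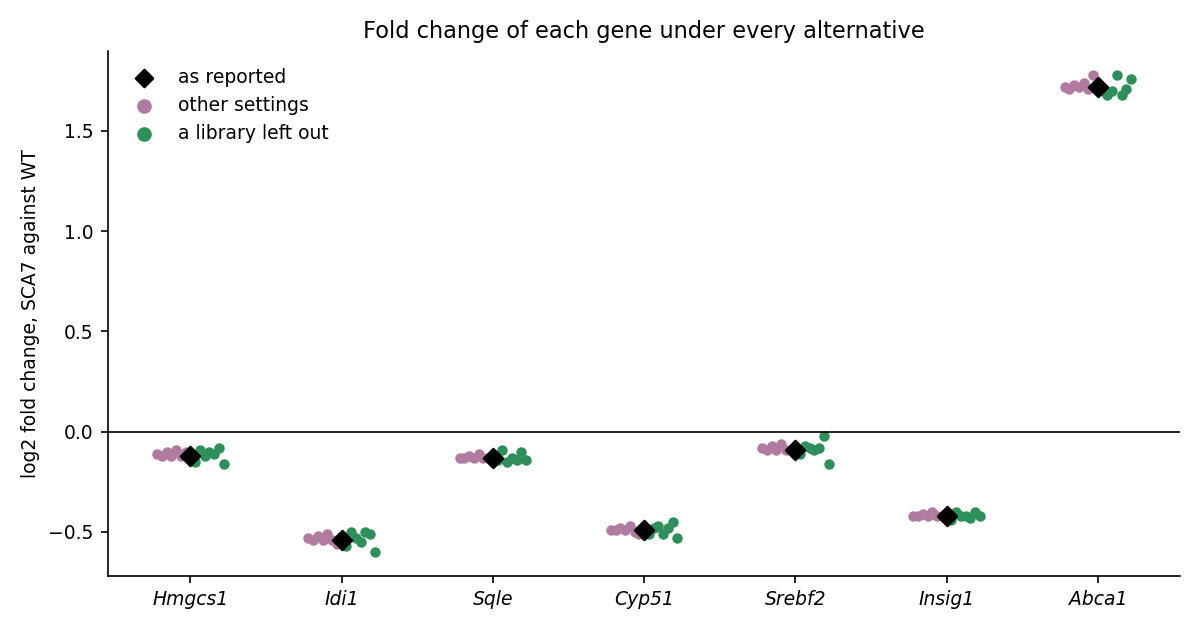
Log2 FC of each gene (SCA7 against WT, vertical axis) as reported (black diamonds), under other settings (purple) and with 1 library left out (green). Abca1 stays between 1.68 and 1.78, Idi1, Cyp51 and Insig1 stay at or below -0.40, and Hmgcs1, Sqle and Srebf2 stay between -0.16 and -0.02.

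The size of the change differed between genes of the same pathway. To compare them without library scaling, the counts of each gene were divided by those of *Hmgcs1* in the same library, a comparison added after the values had been seen. The *Idi1* to *Hmgcs1* ratio was 0.325, 0.334, 0.331 and 0.299 in WT and 0.230, 0.244 and 0.248 in SCA7. The *Cyp51* to *Hmgcs1* ratio was 0.441 to 0.498 in WT and 0.364 to 0.366 in SCA7, and that of *Insig1* was 0.702 to 0.754 in WT and 0.559 to 0.608 in SCA7. In these 3 ratios every SCA7 library lay below every WT library, and the ratios of *Idi1*, *Cyp51* and *Insig1* fell by 0.42 (SE 0.05), 0.38 (SE 0.04) and 0.30 (SE 0.04) on the log2 scale. The *Abca1* to *Hmgcs1* ratio went from between 0.296 and 0.366 in WT to between 1.04 and 1.27 in SCA7, a log2 difference of 1.83 (SE 0.11). Each of these 4 differences had p = 0.0286 by the exact two-sided permutation test, which became 0.0429 after Benjamini-Hochberg adjustment over the 6 ratios. Since *Hmgcs1* itself changed little, these ratios largely repeat the fold changes above, and their p-values are not separate evidence. For *Sqle* the difference from *Hmgcs1* was -0.01 (SE 0.05, exact p = 0.83, also after adjustment) and for *Srebf2* 0.03 (SE 0.04, exact p = 0.514, adjusted 0.617).

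**Figure D3:**
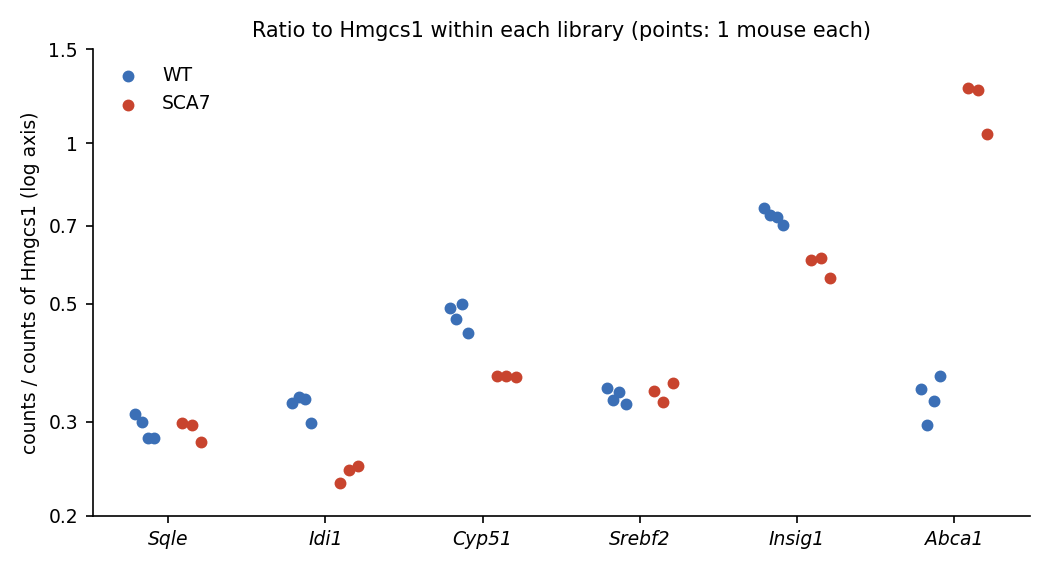
Counts of each gene divided by the counts of Hmgcs1 in the same library (log axis), with 1 point per mouse in WT (blue) and SCA7 (red). Abca1 moves from 0.296 to 0.366 in WT to 1.04 to 1.27 in SCA7, the ratios of Idi1, Cyp51 and Insig1 are lower in SCA7, and those of Sqle and Srebf2 overlap.

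Levels between genes were compared as RPK, the normalised count per kb of exon, taken over the union of exons. In WT, *Insig1* (2850 ± 116 RPK, SD, n = 4) and *Hmgcs1* (2630 ± 148 RPK) were the highest and their libraries overlapped, from 2730 to 3000 and from 2430 to 2760 RPK. They were followed by *Cyp51* (1300 ± 58.6 RPK), *Idi1* (1110 ± 76.5 RPK), *Sqle* (638 ± 35.3 RPK) and *Srebf2* (564 ± 18.3 RPK), with no overlap between neighbours. *Abca1* was the lowest of the 7 in WT, at 389 ± 36.3 RPK.

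In SCA7 the order had changed in 2 places. *Hmgcs1* (2450 ± 154 RPK, SD, n = 3, from 2310 to 2610) stood above *Insig1* (2150 ± 53.5 RPK, from 2090 to 2180), without overlap. *Abca1*, at 1290 ± 78.9 RPK, stood below both and above *Cyp51* (931 ± 55.3 RPK) and *Idi1* (774 ± 64.6 RPK). *Sqle* (588 ± 20.4 RPK) and *Srebf2* (536 ± 54.5 RPK) overlapped there. The order depends on the length used. With the median transcript length, *Cyp51* was the highest in WT (7770 ± 351 RPK), while *Abca1* was again the lowest in WT (731 ± 68.1 RPK) and stood above *Srebf2* and *Sqle* in SCA7 (2420 ± 148 RPK).

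**Figure D4:**
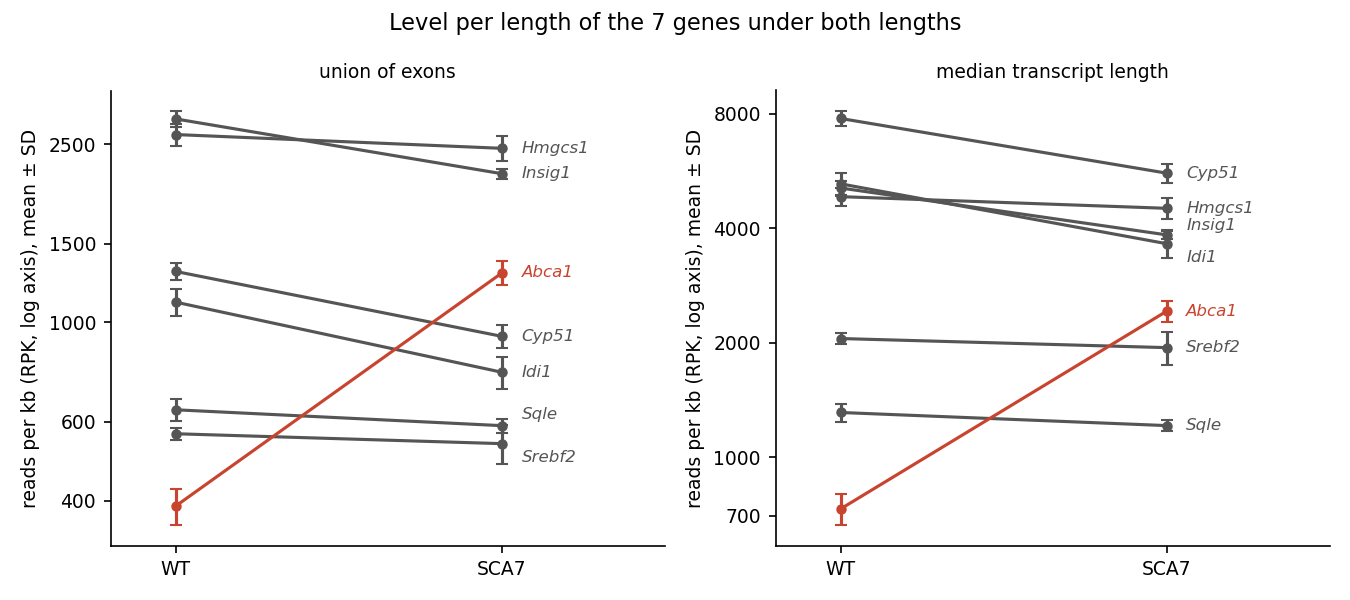
Level per length of the 7 genes in WT and SCA7 (RPK, log axis, mean ± SD, n = 4 and 3), with the union of exons on the left and the median transcript length on the right. Abca1 (red) is the lowest gene in WT in both panels and rises past other genes in SCA7, while the order of the others differs between the panels.

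After the genotype mean was subtracted, the second WT and the third SCA7 library were the highest of their genotype and the first WT and the second SCA7 library the lowest for both *Hmgcs1* and *Srebf2*. The other 5 genes did not share this order. *Cyp51* was highest in the third WT library, *Idi1* was lowest in the first SCA7 library, among the SCA7 libraries *Sqle* and *Insig1* were highest in the first, and *Abca1* was highest in the fourth WT and the first SCA7 library. Among the 14713 other genes that reached 1 CPM on average, those whose deviations were most like the mean of *Hmgcs1*, *Sqle*, *Idi1* and *Cyp51* were *1190002N15Rik* (r = 0.996), *Smchd1* (r = 0.989), *Sema3a* (r = 0.975), *Mid2* (r = 0.974) and *Smim13* (r = 0.960). These values of Pearson's r rest on 7 libraries that share depth and composition and are given as a description, and 51 of the genes reached r of 0.9 or more.

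The genes around the 7 were described with a list of 59 genes of cholesterol metabolism in 6 roles, all of which passed the filter. Of the 52 that are not among the 7, 12 were lower and 12 higher by the same test, which found 14.2% of all genes lower and 14.2% higher, with a median log2 FC of -0.02, the same as over all genes tested. Without the first SCA7 library 5 of the 52 were lower and 6 higher, and without the second 4 were lower and 7 higher. Calls over all genes fell in these fits too. With all libraries, 2852 of the 20128 genes tested were lower and 2853 higher. Without the first SCA7 library 1771 of 20678 were lower and 1748 higher, and without the second 1960 of 20361 and 2004. The counts by role below are to be read beside these. Of the 21 genes of synthesis, 9 were lower, 1 was higher and 11 did not pass, with a median log2 FC of -0.13. Without the 4 enzymes already described, 7 of the other 17 were lower and 1 was higher, with a median of -0.12. Without the first or the second SCA7 library, 3 of the 21 were lower.

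Of the 8 genes of the mevalonate steps, 4 were lower and 1 was higher, against 14.2% of all genes tested in each direction. Without the first or the second SCA7 library 1 was lower, and without the second WT or the third SCA7 library 2 were. *Pmvk*, phosphomevalonate kinase, was the gene that rose. Its level was 40.4, 41.6, 46.8 and 41.1 CPM in WT and 59.8, 57.3 and 57.1 CPM in SCA7, with a log2 FC of 0.45 (SE 0.06, adjusted p = 0.00026).

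Of the 13 genes from squalene onwards, 5 were lower, 0 were higher and 8 did not pass, against 14.2% of all genes in each direction. Without the first or the second SCA7 library 2 were lower, and without the third WT library 7 were lower and 1 higher. The largest fall was that of *Cyp51*. *Msmo1*, a methylsterol monooxygenase that acts after it in the pathway and was picked after its values were seen, was close behind. It was read at 69.2, 75.6, 75.7 and 74.0 CPM in WT and at 52.3, 51.9 and 55.4 CPM in SCA7 (log2 FC -0.47, SE 0.06, edgeR adjusted p = 9.7e-05).

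Of the 11 regulators, 2 were lower and 3 higher, beside 14.2% of all genes in each direction, with a median log2 FC of 0.12. Without the first or the second SCA7 library 1 was lower and 2 were higher. *Nr1h3*, which encodes the receptor LXR alpha, was read at 4.65, 4.11, 4.31 and 3.17 CPM in WT and at 6.27, 7.08 and 6.66 CPM in SCA7. It rose by a log2 FC of 0.72 (SE 0.12, adjusted p = 0.0011), and the groups did not overlap.

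Of the 14 genes of uptake and transport inside the cell, 2 were lower, 3 were higher and 9 did not pass. Over all genes tested, 14.2% were lower and 14.2% higher. The counts of the 14 changed when single libraries were left out, as did those over all genes. Without the first SCA7 library 0 were higher, and without the second WT, the second SCA7 or the third SCA7 library 1 was higher and 1 lower. Without the third WT library 4 were lower. *Lrp1*, a receptor for lipoproteins and many other ligands, rose from 89.6 ± 12.0 CPM to 109 ± 5.09 CPM (log2 FC 0.28, SE 0.09, edgeR adjusted p = 0.045). *Lrp1* missed the threshold without the second WT library or any of the SCA7 libraries (adjusted p = 0.091, 0.15, 0.11 and 0.069).

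Of the 7 genes of efflux and carriers, 4 were higher and 2 lower, beside 14.2% of all genes in each direction. *Abca1* was the largest change of all 59 genes. *Pltp*, the phospholipid transfer protein, was read at 18.8, 19.5, 19.0 and 17.7 CPM in WT and at 11.8, 12.4 and 14.2 CPM in SCA7, a fall with a log2 FC of -0.55 (SE 0.08, edgeR adjusted p = 3e-04). *Apoe*, the main lipid carrier made by glia and picked after its values were seen, rose from 686 ± 76.9 CPM to 920 ± 29.5 CPM (log2 FC 0.42, SE 0.09, adjusted p = 0.0034). Of the 6 genes of esters and oxysterols, 2 were higher and 0 lower, beside the same shares of all genes. With any single library other than the third WT library left out 1 was higher, and without the first WT library 1 was also lower. *Soat1*, which stores cholesterol as esters, rose from 24.7 ± 1.67 CPM to 30.2 ± 1.11 CPM (log2 FC 0.29, SE 0.07, adjusted p = 0.008).

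**Figure D5:**
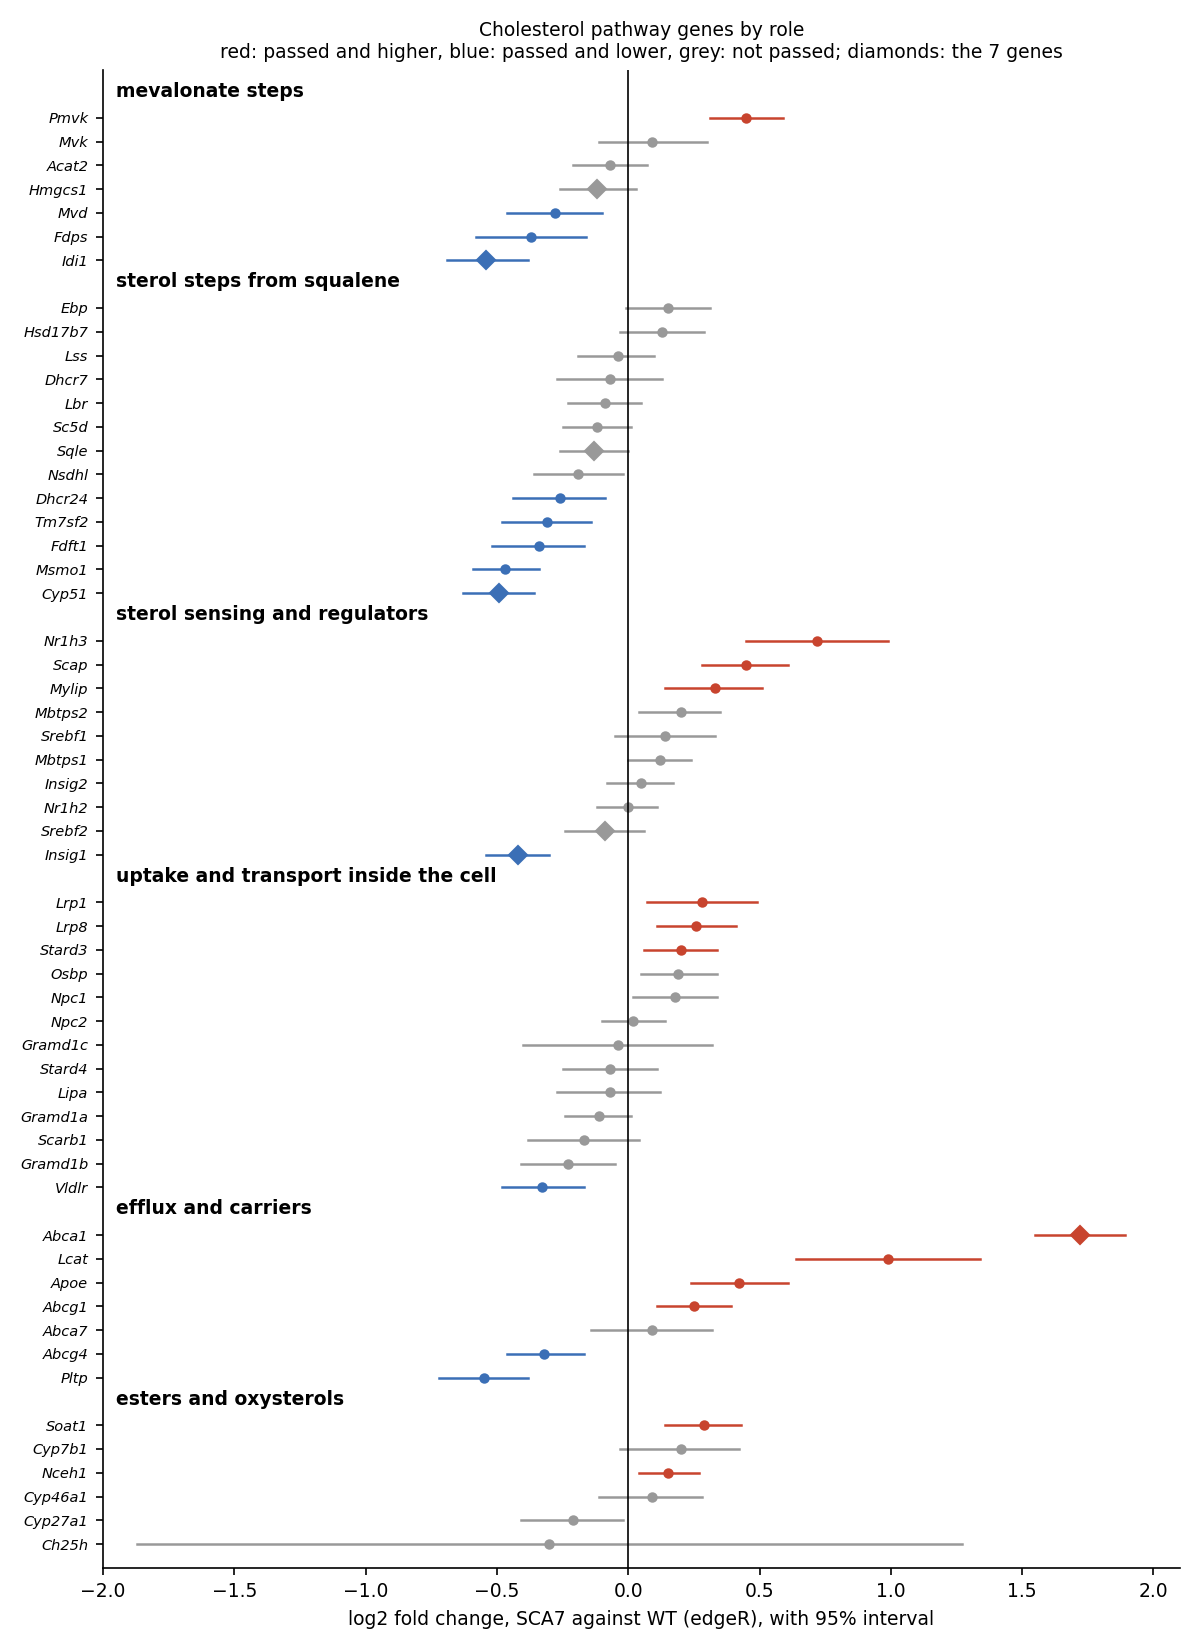
Log2 FC (SCA7 against WT, edgeR, with 95% interval) of 56 of the 59 genes of cholesterol metabolism grouped by role, in red where higher and blue where lower at an adjusted p under 0.05 and in grey where the test was not passed, with the 7 genes as diamonds. Of the 20 genes of synthesis plotted, 8 are lower and 1 is higher, and Abca1 has the largest change.

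The replicate numbers of the libraries were also fitted as a block. The fourth WT library has no partner and drops out of the blocked comparison. None of the 7 genes had another call in this fit, and 6 of the other 52 had. *Stard3* (log2 FC 0.17, adjusted p = 0.052) and *Nceh1* (0.15, adjusted p = 0.077) were then no longer higher. *Osbp* (0.24, adjusted p = 0.0034), *Npc1* (0.23, adjusted p = 0.0061) and *Mbtps2* (0.23, adjusted p = 0.019) were then higher, and *Nsdhl* (-0.22, adjusted p = 0.032) was then lower. Leaving out the fourth WT library alone, with no block, already gave 5 of these 6 changes (adjusted p = 0.062 for *Stard3*, 0.062 for *Nceh1*, 0.011 for *Osbp*, 0.026 for *Npc1* and 0.033 for *Mbtps2*) and left *Nsdhl* at an adjusted p of 0.052.

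The makeup of the RNA differed between the genotypes beside these results. Over all genes tested, 14.2% were lower and 14.2% higher, so a marker count such as 1 of 7 is near that share. All 8 rod markers and all 7 cone markers were lower in SCA7, their summed levels going from between 59800 and 62000 to between 15700 and 20400 CPM for rods and from between 1320 and 1530 to between 196 and 218 CPM for cones. All 10 microglia markers were higher (76.8 to 98.3 CPM in WT, 161 to 179 CPM in SCA7), as were 6 of 7 markers of reactive glia (86.6 to 96.6 CPM, 386 to 451 CPM) and 4 of 7 of endothelium and pericytes, where 1 was lower (235 to 280 CPM, 318 to 362 CPM). Of the 7 markers of Müller glia 1 was lower and 2 were higher (4320 to 5220 CPM, 4130 to 4370 CPM), and 4 of 6 bipolar cell markers were lower (680 to 816 CPM, 619 to 664 CPM). Lower too were 3 of 6 markers of the retinal pigment epithelium (70.0 to 141 CPM, 17.2 to 43.0 CPM) and 3 of 5 of macrophages (10.6 to 14.2 CPM, 6.46 to 6.83 CPM). None of the 4 lens markers tested (42.9 to 550 CPM, 30.8 to 878 CPM) or the 3 of red blood cells (45.9 to 64.8 CPM, 25.7 to 53.2 CPM) passed the test. No marker was at 0 in every library, and *Lim2* of the lens list was at 0 in at least 1 library of each genotype. The part of these differences in the levels of *Abca1*, *Idi1*, *Cyp51* and *Insig1* was not tested.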

How the data were processed

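Total RNA-seq was read from 7 libraries, 4 WT and 3 SCA7. Per the study's methods and the submitters' processing notes, the authors mapped single reads to mm10 with TopHat2 2.0.14 and Bowtie2 2.1.0 and counted them on Ensembl genes with HTSeq 0.6.1. The deposited table holds raw counts, without normalization, for 52550 genes. The HTSeq mode and strand setting are not given in the sources used here. Total counts per library lay between 56497675 and 96635832 (median 67140118). Precision is given as the SD over mice or the SE of the fit.

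Genes were filtered with filterByExpr of edgeR, grouped by genotype, and scaled by TMM. The 20128 genes left were compared with glmQLFit (robust) and glmQLFTest, without covariates, with Benjamini-Hochberg adjustment. Single genes were also compared by exact two-sided permutation tests of mean log2 CPM (0.01 CPM added). Gene positions and lengths came from GENCODE on GRCm38, and promoters from RefSeq. R 4.3.3, edgeR 4.0.16, limma 3.58.1 and DESeq2 1.42.0 were used, and the fits were tested on simulated data.

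The 7 genes and the lists were chosen with earlier results of these data known. Also named were, per list of the pathway, the called genes with the largest decrease and increase, any gene under the filter, and the 5 genes most like the enzymes over the libraries. *Msmo1* and *Apoe*, and the genes whose call differed in the blocked fit, were added after their values were seen. The single values of 3 genes of the lists are not reported here, though they count in the numbers per list.

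Same-numbered WT and SCA7 libraries had correlations of their deviations of 0.11, 0.38 and 0.17 across genes, all over 0.1. The replicate number was therefore fitted as a block in an alternative fit. The main fit and the permutation tests did not use it. Of the pairs with different numbers, the fourth WT library reached 0.15 and 0.19 with SCA7 replicates 1 and 3. Both values are above those of the same-numbered pairs of these SCA7 libraries, so the pairing is uncertain. The others lay at or below 0.08. The labels do not say what a number marks. Alternatives were DESeq2 size factors, TMM without the 500 most counted genes, the DESeq2 Wald test, limma-voom, other filters, the block, *Xist* as a covariate, fold limits of 0.7 and 1.3, 1 CPM added in the permutation tests, and each library left out.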

Additional observations from a re-analysis of the deposited data

How the results depend on the processing

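Of the 7 genes, 3 were lower and 1 higher in every alternative fit run without fold limits, except that without WT replicate 3 *Sqle* also passed, so that leaving out single libraries gave 3 to 4 lower and 1 to 1 higher. With the fold limits, 1 of the 7 genes was lower, and of the 59 genes of cholesterol metabolism 2 were lower and 6 higher, against 15 and 13 without them. Of all genes tested, 7.91% were lower and 7.47% higher with the fold limits, and 14.2% each without them. With these limits and single libraries left out, 0 to 2 of the 7 genes and 0 to 4 of the 59 were lower, and 5 to 7 of the 59 higher. Leaving out single libraries gave 7 to 19 of the 59 genes lower and 7 to 14 higher. The lowest numbers came without SCA7 replicate 1 (8 lower, 7 higher) or SCA7 replicate 2 (7 lower, 8 higher), where 2 SCA7 libraries remain. Calls over all genes fell there too, from 2852 lower and 2853 higher of 20128. They were 1771 and 1748 of 20678 without SCA7 replicate 1, and 1960 and 2004 of 20361 without SCA7 replicate 2. The number of the 7 genes without overlap between genotypes was 5 to 7 with single libraries left out and 4 without the filter on low counts, and it was 7 without SCA7 replicate 3, the library that overlaps WT for *Hmgcs1* and *Srebf2*. The replicate block gave 16 genes lower and 14 higher of the 59 and changed no call of the 7 genes. Over the 59 single genes and all settings, 811 values kept their side of the threshold, 48 no longer passed, 25 newly passed and 0 that had passed changed direction, while some fold changes that did not pass, such as that of *Ch25h* (-0.30, and 0.59 without WT replicate 1), could change sign. At 3 and 4 mice the exact tests cannot give a p below 0.0286, and differences such as those of *Hmgcs1*, *Sqle* and *Srebf2*, with standard errors of 0.06 to 0.07 on the log2 scale, were not resolved.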
